A study of Mus musculus with 7 samples.

Results

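Interleukin-2 (IL-2) and the 3 chains of its receptor are described here by the UMI counts of 4 genes, Il2 (ENSMUSG00000027720), Il2ra (ENSMUSG00000026770, the alpha chain or CD25), Il2rb (ENSMUSG00000068227, the beta chain or CD122) and Il2rg (ENSMUSG00000031304, the common gamma chain). They were chosen by name, as the cytokine and its receptor, and are 4 of the 55357 features of the deposited matrices. IL-2 is a growth factor for T and NK cells that is made mainly by activated T cells. The beta and gamma chains pass the signal on through JAK1, JAK3 and STAT5 and bind IL-2 with intermediate affinity, whereas the alpha chain does not signal but raises the affinity of the receptor. Regulatory T cells carry the alpha chain constantly, activated T cells and type 2 innate lymphoid cells (ILC2) can carry it, and memory CD8 T cells and NK cells are known for the beta and gamma chains.

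The study asked how an IL-2/CD25 plasmid changes the immune cells of mouse livers with hepatocellular carcinoma (HCC). All 7 samples are labelled HCC tissue and come from mice given plasmids for the oncogenes Nras and c-Myc by hydrodynamic tail vein injection, which drives naked DNA mainly into hepatocytes, and livers were taken at 2 weeks. The 3 controls received these plasmids alone, and the 4 samples called treated below also received the IL-2/CD25 expression plasmid, in the same injection. Single cells were profiled by droplet 3′ RNA sequencing, and the labels do not divide the samples into batches. The strain, age and sex of the mice and the promoter of the plasmids are not stated. The labels do not say that each sample is a separate animal, so the p-values below measure the spread between these samples. The plasmid's sequence was not analysed here, so UMIs of its transcripts and of the mouse Il2 and Il2ra genes cannot be told apart.

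After filtering, the controls held 6834 to 8789 cells and the treated samples 6823 to 9551. Control cells were deeper, with median UMI counts per cell of 5650, 5787.5 and 8140, against 4365, 3496, 3090 and 3845 in treated cells, so shares of cells are given after thinning to 2000 UMIs, which leaves out shallower cells. Left out were 6.67% of control and 1.14% of treated Treg cells, 1.96 and 1.50% of CD8 T cells and 7.43 and 5.46% of NK cells, but 59.2 and 11.1% of B cells and 51.3 and 26.3% of neutrophils. Cells were assigned to classes by marker UMIs, with none of the 4 genes read: regulatory T cells (Treg) by Foxp3, CD8 T cells by Cd8a or Cd8b1, conventional CD4 T cells by Cd4 without Foxp3, natural killer T (NKT)-like cells by Zbtb16, gamma delta T cells by Trdc, and NK cells and ILC1 by Ncr1, Klre1 or Klrb1c without Cd3 UMIs. T cells with none or several of these marks are called other T cells. A class name stands for cells with these markers. The lymphocyte classes were small in controls, with 6, 15 and 9 Treg cells, 10 to 15 NKT-like cells and 109 to 207 NK cells, against 119 to 264, 239 to 350 and 2434 to 3465 in treated samples. Monocytes and macrophages numbered 1373 to 1958 in controls and 81 to 158 in treated samples. The epithelial class gated by tumour keratins and related markers went against its tumour name in treated samples: Myc stood at 2294 ± 166 CPM (UMIs of the gene per 1000000 UMIs of the class, SD, n = 3) in controls and 34.6 ± 25.7 (n = 4) in treated samples, and it is called keratin-high epithelial cells below. The NKT-like name also had little support in controls, where no cell held a Trav11 UMI, against 4.86 to 7.27% of these cells in treated samples. With 36 control cells, a count of 0 allows a share of up to 8.33% by a limit of 3 cells. The groups could thus not be told apart by Trav11.

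Il2ra was highest in Treg cells, and there it was higher in treated samples. Its level was 658, 252 and 439 CPM in controls and 1166, 773, 1077 and 887 CPM in treated samples. Every treated sample lay above every control, and the lowest treated value was close to the highest control value. The log2 fold change was 1.48 (SE 0.27), and Il2ra rose past the threshold of 0.05 over all genes tested (adjusted p = 0.000753, edgeR's quasi-likelihood test with Benjamini-Hochberg adjustment). In these cells 2.45% of the 7523 genes tested passed in either direction, 1.73% upward and 0.718% downward. This fit used samples with at least 5 cells of the class, a minimum set after the cell numbers were seen, because only 1 control had the 10 cells planned. Without control 2 the log2 fold change was 1.18 (adjusted p = 0.0652, edgeR). The Treg name held in both groups by genes outside the gate: Ikzf2, which encodes Helios, stood at 2063 CPM in controls and 3069 in treated samples, and Ctla4, an inhibitory receptor of Treg cells, at 476 and 1576. Markers of other cell types moved with the groups in the same cells, from lists of 10 genes each. Those of keratin-high epithelial cells summed to 264 to 877 CPM in controls and 93.8 to 156 in treated samples, with 4 to 7 genes seen in each control. Those of neutrophils summed to 171 to 395 and 29.8 to 54.6 CPM, and those of monocytes and macrophages to 122 to 175 and 25.2 to 36.9 CPM. Conventional dendritic markers stood at 634 CPM in control 3, against 43.8 and 12.0 in the other controls and 6.52 to 18.4 in treated samples. Their part in the levels of Il2ra and Il2rb was not tested. Without control 3 the log2 fold change of Il2ra was 1.58 (adjusted p = 0.00518, edgeR). A Treg cell held a median of 1 Il2ra UMI in controls and 3 in treated samples, where the cell at the upper decile held 12 and the highest 65. The estimated share of free RNA in Treg UMIs was 6.51 to 11.9% in controls and 16.0 to 20.7% in treated samples, and its part in the result was not tested in this class.

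In CD8 T cells and in NK cells Il2ra moved the other way. CD8 T cells, the cytotoxic T cells, held 21.1, 49.3 and 22.6 CPM in controls and 13.1, 12.1, 12.4 and 10.0 CPM in treated samples. All treated samples lay below all controls, and control 2, with 53 cells, stood above the other controls. Il2ra fell by 1.29 on the log2 scale (SE 0.26, adjusted p = 0.000649, edgeR), in a class where 56.5% of the genes tested passed, 26.9% upward and 29.6% downward. NK cells and ILC1, innate lymphocytes that kill without a rearranged antigen receptor, held 22.4, 25.5 and 24.9 CPM in controls and 9.16, 8.70, 9.93 and 8.05 CPM in treated samples. The groups did not overlap, and the spread within each was small. The log2 fold change was -1.53 (SE 0.19, adjusted p = 4.9e-05, edgeR), where 40.4% of the genes tested passed, 20.2% upward and 20.3% downward. Both calls were also made with each sample left out in turn, over a range of -1.54 to -0.98 in CD8 T cells and -1.61 to -1.41 in NK cells.

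Other measures differed between the same cells. Mki67, a marker of dividing cells, stood at 590 ± 177 CPM (SD, n = 3) in control CD8 T cells and 28.5 ± 13.02 (n = 4) in treated ones, and at 242 ± 89.5 and 28.2 ± 5.62 CPM in NK cells. The summed markers of keratin-high epithelial cells stood at 454 and 20.9 CPM in CD8 T cells and at 602 and 31.3 CPM in NK cells of controls and treated samples. Their part in the fall of Il2ra was not tested. Free RNA would come from all cells of a sample. Over all cells Il2ra stood at 3.07, 3.52 and 1.09 CPM in controls and 70.0, 43.7, 48.5 and 63.2 CPM in treated samples. Treated CD8 T cells held Il2ra at 15.8 to 27.8% of this level, beside an estimated free RNA share of 12.8 to 16.6% of their UMIs. Treated NK cells held it at 12.7 to 20.4%, beside 8.68 to 12.8%. With an estimate of free RNA subtracted, the log2 fold changes were -3.10 in CD8 T cells and -3.11 in NK cells (adjusted p = 0.00426 in NK cells, edgeR).

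Conventional CD4 T cells, gated by Cd4 and the absence of a Foxp3 UMI, held more Il2ra in treated samples. This gate cannot exclude Treg cells in which no Foxp3 UMI was captured. The levels were 52.8, 35.8 and 0 CPM in controls and 212, 114, 105 and 215 CPM in treated samples. The groups did not overlap, although control 3 had no UMI in 27 cells and both groups spread widely. Il2ra rose by 1.96 on the log2 scale (SE 0.44, adjusted p = 0.00299, edgeR), and ran from 1.63 without control 3 to 2.95 without control 1, past the threshold with each sample left out, in a class where 22.1% of the genes tested passed, 8.74% upward and 13.4% downward. In the same cells Ikzf2 stood at 217 CPM in controls and 564 in treated samples, and Ctla4 at 128 and 236 CPM. Mki67 stood at 384 ± 246 and 38.0 ± 21.3 CPM and the summed markers of keratin-high epithelial cells at 553 ± 314 and 71.2 ± 77.5 CPM in controls and treated samples, and their part was not tested. Among CD4 T cells with a UMI of Ikzf2 or Ctla4, Il2ra stood at 24.6 ± 24.7 CPM in controls (SD, n = 3, 47 cells) and 309 ± 74.1 CPM in treated samples (n = 4, 214 cells). Among those with neither, it stood at 32.6 ± 28.9 CPM (57 cells) and 54.7 ± 25.0 CPM (390 cells), with sample ranges of 0 to 55.3 and 38.4 to 92.0 CPM. The group ranges stood apart in the cells with Ikzf2 or Ctla4 and overlapped in the cells with neither. In controls the cells with either gene were 43.5 to 46.3% of CD4 T cells and held 7 Il2ra UMIs in all. Ikzf2 is not particular to Treg cells, and stood at 623 CPM in treated other T cells and 430 in treated gamma delta T cells. The split by Ikzf2 and Ctla4 was made after the values were seen, and no test was run on it.

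In the other T cell classes Il2ra did not pass. NKT-like cells, which share features of T and NK cells, held 276, 294 and 57.5 CPM in controls and 210, 148, 141 and 166 CPM in treated samples. The control values spread around the treated ones, and the log2 fold change was -0.02 (adjusted p = 0.985, edgeR), where 4.23% of genes passed, 2.62% upward and 1.61% downward. Other T cells stood at 65.4 ± 20.004 and 78.7 ± 4.99 CPM (log2 fold change 0.18, adjusted p = 0.523, edgeR), where 22.5% of genes passed, 10.2% upward and 12.3% downward. Gamma delta T cells, which carry the second kind of T cell receptor and were tested with 2 controls, gave a log2 fold change of 0.63 (adjusted p = 0.809, edgeR), where 2.42% of genes passed, 1.3% upward and 1.12% downward. ILC2-like cells, gated on Gata3 and other ILC2 markers, held 894, 408, 606 and 646 CPM in treated samples, with 16 to 32 cells each. Controls held 1 such cell in all, so no comparison was possible.

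Conventional dendritic cells, which present antigen to T cells, held 11.2, 5.17 and 4.19 CPM of Il2ra in controls and 34.6, 7.23, 15.8 and 17.7 CPM in treated samples. The second treated sample lay between controls 1 and 2. The log2 fold change was 1.36 (adjusted p = 0.0173, edgeR), in a class where 46.4% of genes passed, 23.3% upward and 23% downward. The call was lost without control 2 (1.17, adjusted p = 0.0584), control 3 (1.15, adjusted p = 0.0733) or treated sample 1 (0.83, adjusted p = 0.104, edgeR), and with free RNA subtracted (0.92, adjusted p = 0.164, edgeR).

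Ordered by mean level in treated samples, Il2ra stood at 976 ± 178 CPM (SD, n = 4) in Treg cells, 639 ± 200 in ILC2-like cells, 166 ± 30.9 in NKT-like cells and 162 ± 60.3 in CD4 T cells. Next came other T cells at 78.7 ± 4.99, gamma delta T cells at 56.2 ± 21.3, conventional dendritic cells at 18.8 ± 11.5, CD8 T cells at 11.9 ± 1.31 and NK cells at 8.96 ± 0.789. Sample ranges overlapped between Treg and ILC2-like cells, between NKT-like and CD4 T cells, between other T and gamma delta T cells and between dendritic and CD8 T cells. They did not overlap between ILC2-like and NKT-like cells, between CD4 and other T cells or between CD8 T and NK cells. The part of free RNA, estimated above for treated CD8 T and NK cells, in the order of these 2 low levels was not tested. In controls Treg cells led at 449 ± 203 CPM and NKT-like cells followed at 209 ± 132, and these ranges overlapped. Levels also differed between classes outside the T and NK cells. Monocytes and macrophages held 0.583 ± 0.446 CPM in controls and 0.390 ± 0.780 CPM in treated samples. B cells held 2.84 ± 1.28 and 4.45 ± 1.28 CPM, and plasmacytoid dendritic cells 4.77 ± 4.45 and 4.16 ± 1.79 CPM. Keratin-high epithelial cells held 0.190 ± 0.0713 and 4.49 ± 7.39 CPM.

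**Figure D1:**
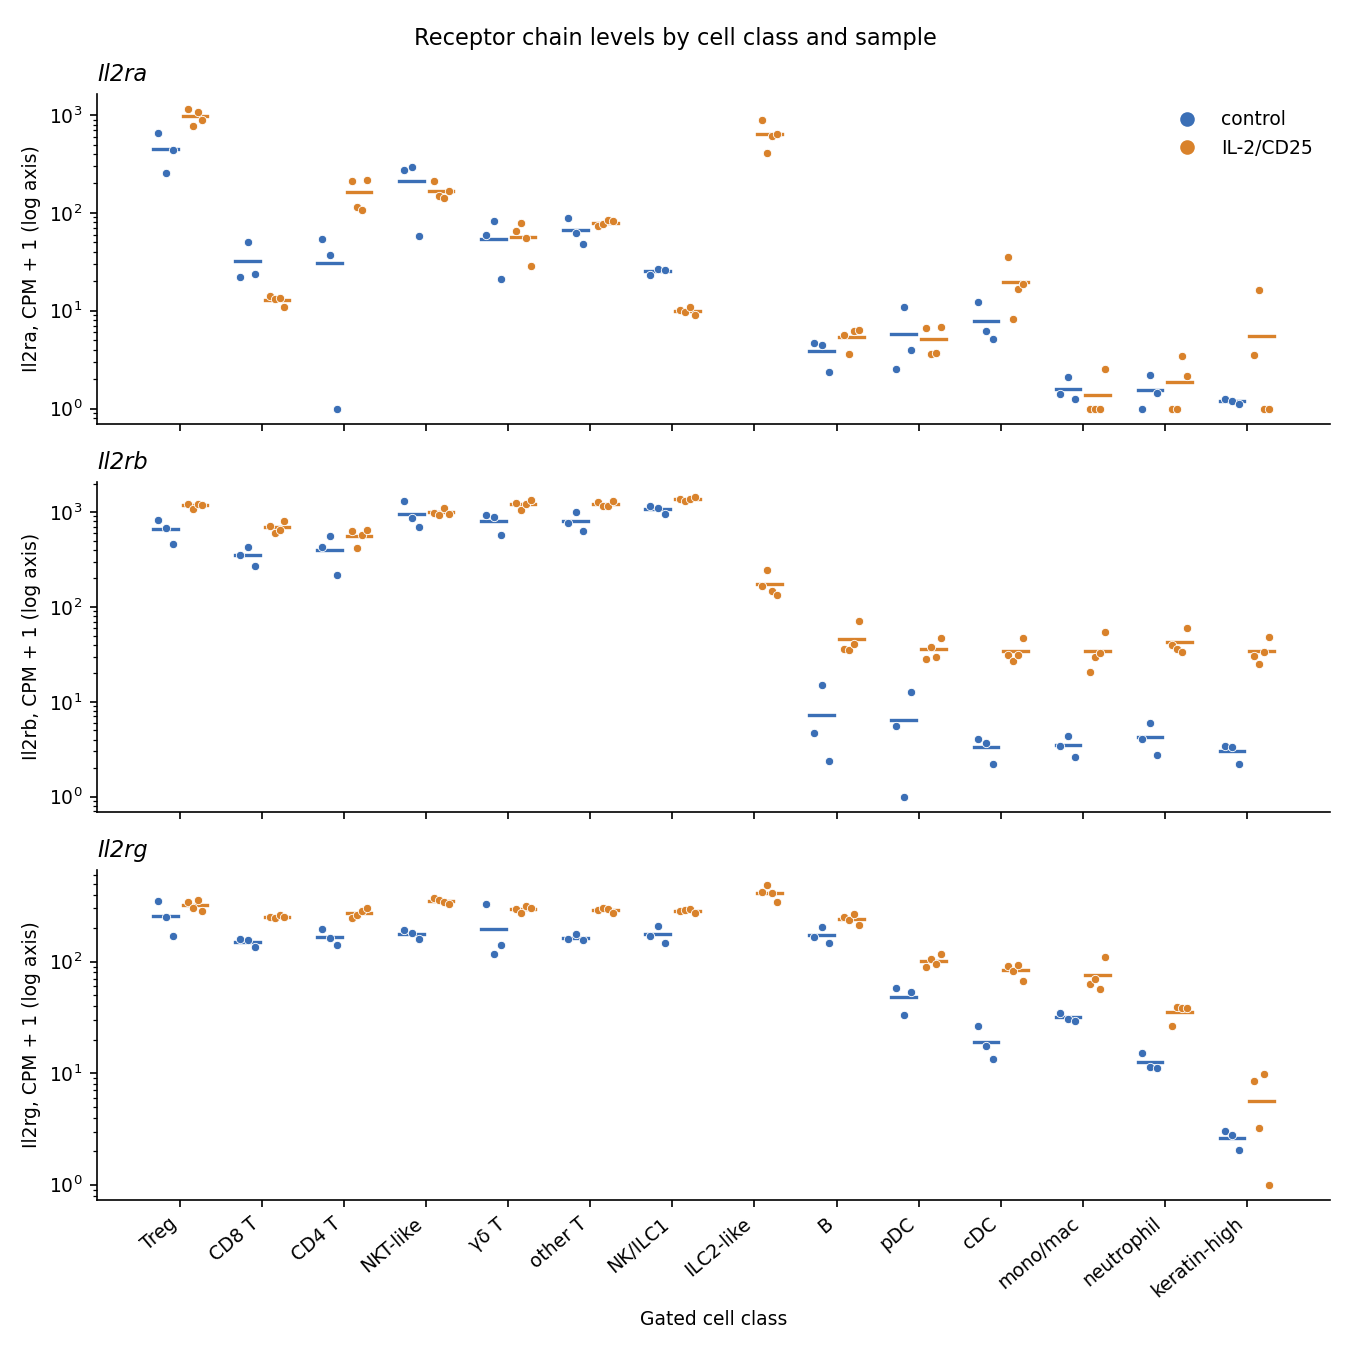
Level of each receptor chain in CPM of a class (log axis) for every sample, by cell class. Points are samples, control or treated, and bars are group means. Among the T and NK cell classes Il2ra ranges most widely, from 976 CPM in treated Treg cells to 8.96 CPM in treated NK cells. Treated means are lower still in some other classes, such as 0.390 CPM in monocytes and macrophages. Treated samples lie above controls in Treg cells and below them in CD8 T and NK cells.

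Il2rb, the signalling chain shared with the IL-15 receptor, was widespread in T and NK cells and higher in treated samples in several classes. CD8 T cells held 356, 427 and 266 CPM in controls and 708, 605, 648 and 811 CPM in treated samples. Every treated sample stood well above every control. Il2rb rose by 0.92 on the log2 scale (SE 0.14, adjusted p = 7.06e-05, edgeR), and it passed with each sample left out (0.84 to 1.05) and with free RNA subtracted (0.76). Treg cells held 833, 684 and 463 CPM in controls and 1222, 1071, 1218 and 1189 CPM in treated samples, again with no overlap. The log2 fold change was 1.00 (SE 0.22, adjusted p = 0.01, edgeR, samples with at least 5 cells), and the call was lost without control 3 (0.83, adjusted p = 0.108) or treated sample 1 (0.87, adjusted p = 0.0626, edgeR).

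NK cells and ILC1 had the highest mean Il2rb of the classes in both groups, and the difference between groups was small. The levels were 1157, 1092 and 964 CPM in controls and 1379, 1320.1, 1382 and 1457 CPM in treated samples. The groups did not overlap, and the log2 fold change was 0.31 (SE 0.11, adjusted p = 0.0368, edgeR). The call was lost whichever of the 7 samples was left out (0.24 to 0.37, adjusted p = 0.0521 to 0.111, edgeR) and with free RNA subtracted (0.18, adjusted p = 0.193, edgeR). Other T cells held 759, 997 and 638 CPM in controls and 1265, 1164, 1169.6 and 1315 CPM in treated samples, with no overlap. Their log2 fold change of 0.51 passed (adjusted p = 0.02, edgeR) but was lost without control 1 (0.45, adjusted p = 0.0925), control 3 (0.37, adjusted p = 0.122), treated sample 1 (0.46, adjusted p = 0.0545) or treated sample 4 (0.44, adjusted p = 0.0513), and with free RNA subtracted (0.33, adjusted p = 0.156, edgeR).

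The remaining T cell classes showed smaller or less stable differences in Il2rb. Gamma delta T cells held 943 and 577 CPM in the 2 controls with 10 cells and 1233, 1060.3, 1208 and 1349 CPM in treated samples, without overlap. The log2 fold change of 0.79 passed (adjusted p = 0.0364, edgeR) but was lost in 5 of 6 fits with a sample left out (0.56 to 1.21) and with free RNA subtracted (0.77, adjusted p = 0.0688, edgeR). NKT-like cells held 1295, 859.7 and 704 CPM in controls and 975, 935, 1110.2 and 948 CPM in treated samples, so the groups overlapped (0.24, adjusted p = 0.564, edgeR). CD4 T cells held 426, 564 and 216 CPM in controls and 624, 418, 568 and 645 CPM in treated samples, which overlapped as well (0.37, adjusted p = 0.234, edgeR).

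Il2rb also passed in all 6 classes outside the T and NK cells, at low levels that were alike between classes. B cells, for example, held 3.66, 14.0 and 1.37 CPM in controls and 34.8, 33.8, 40.1 and 69.4 CPM in treated samples. Group means in these 6 classes ran from 2.01 to 6.33 CPM in controls and from 28.7 to 44.5 CPM in treated samples, with log2 fold changes of 3.11 in B cells, 2.69 in plasmacytoid dendritic cells, 3.70 in conventional dendritic cells, 3.67 in monocytes and macrophages, 3.36 in neutrophils and 3.35 in keratin-high epithelial cells (each adjusted p at most 0.000853, edgeR). Of all genes tested, 30.2% passed in B cells (12.5% upward and 17.7% downward) and 17.5% in plasmacytoid dendritic cells (7.63 and 9.88%). The share was 52.4% in monocytes and macrophages (26.5 and 25.9%), 52.4% in neutrophils (24.9 and 27.5%) and 60.9% in keratin-high epithelial cells (31.1 and 29.8%).

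The level of Il2rb over all cells was 25.9, 43.7 and 9.07 CPM in controls and 864, 708, 756 and 1008 CPM in treated samples. Relative to it, the 6 classes held a median of 12.6% (0 to 128%) in controls and 4.24% (2.23 to 6.83%) in treated samples. Gzma, Nkg7 and Ms4a4b, genes of T and NK cells that were not used in the gates, stood at a median of 10.4% (3.93 to 33.2%) and 3.11% (1.84 to 5.06%) of their own all-cell levels in the same 6 classes. With free RNA subtracted, Il2rb was left with too few counts to be tested in 5 of these classes, and keratin-high epithelial cells gave 4.77 (adjusted p = 0.0082, edgeR). Among cells with at least 2000 UMIs, thinned to that number, 0.417% of B cells in controls and 8.02% in treated samples held an Il2rb UMI, beside 0.534 and 8.32% of neutrophils and 0.501 and 7.43% of monocytes and macrophages. Unthinned, the shares were 1.23 and 12.1% of B cells, 0.931 and 10.9% of neutrophils and 2.84 and 21.7% of monocytes and macrophages. The part of free RNA in these levels was not tested in these 3 classes.

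**Figure D2:**
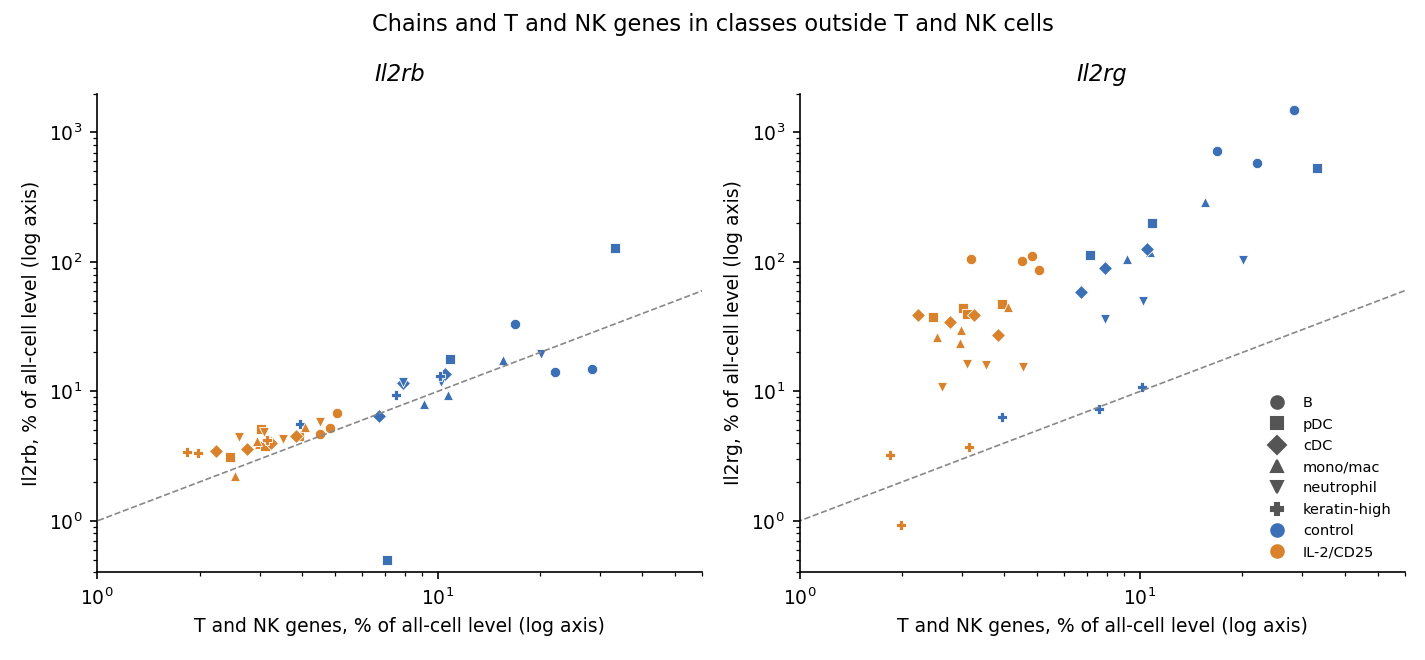
Level of Il2rb and Il2rg in classes outside the T and NK cells as a percent of the level over all cells of the same sample (log axis), beside Gzma, Nkg7 and Ms4a4b, genes of T and NK cells. Points are class and sample pairs, and a value of 0 is drawn at 0.5. In treated samples Il2rb lies near the T and NK cell genes, with medians of 4.24 and 3.11%, and Il2rg lies mostly above them, with a median of 34.5%.

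Il2rg, the chain shared by the receptors of IL-2, IL-4, IL-7, IL-9, IL-15 and IL-21, was higher in treated samples in nearly all classes. CD8 T cells held 159.8, 155 and 136 CPM in controls and 252, 244, 263 and 252 CPM in treated samples. NK cells held 170.4, 208 and 145 CPM in controls and 283, 289, 297 and 273 CPM in treated samples. In both classes the groups stood well apart, with less spread among treated samples. The log2 fold changes were 0.66 in CD8 T cells (adjusted p = 7.12e-05) and 0.59 in NK cells (adjusted p = 0.00162, edgeR). Other T cells held 159, 176 and 155 CPM in controls and 289, 302, 298 and 274 CPM in treated samples, with a log2 fold change of 0.72 (adjusted p = 0.00043, edgeR).

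NKT-like cells held 193, 181 and 158 CPM of Il2rg in controls, from 7 to 11 UMIs a sample, and 373, 354, 344 and 329 CPM in treated samples. The groups stood apart, and Il2rg rose by 1.12 on the log2 scale (SE 0.27, adjusted p = 0.00926, edgeR), in a class where the median over all genes tested was 0.26. The call was lost without control 3 (1.11, adjusted p = 0.0781, edgeR). CD4 T cells held 197, 161 and 141 CPM in controls and 243, 261, 281 and 301 CPM in treated samples. Their log2 fold change of 0.56 passed (adjusted p = 0.0352, edgeR) but was lost in 4 of the 7 fits with a sample left out (all 3 controls and treated sample 3, adjusted p up to 0.0957), in DESeq2 (0.57, adjusted p = 0.0793) and with free RNA subtracted (0.47, adjusted p = 0.12, edgeR). Il2rg did not pass in Treg cells (0.51, adjusted p = 0.392) or gamma delta T cells (0.45, adjusted p = 0.482, edgeR).

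Outside the T and NK cells Il2rg passed in all 6 classes. Conventional dendritic cells held 25.4, 16.4 and 12.3 CPM in controls and 91.2, 81.2, 92.7 and 66.4 CPM in treated samples, and the log2 fold change was 2.11 (adjusted p = 1.79e-06, edgeR). Neutrophils stood at 11.5 CPM in controls and 34.7 in treated samples (1.29, adjusted p = 0.000378, edgeR), and monocytes and macrophages at 30.6 and 74.3 CPM (1.22, adjusted p = 0.00036, edgeR). These 3 calls were also made with each sample left out in turn. Plasmacytoid dendritic cells, the main producers of type I interferon, stood at 47.1 and 100.4 CPM (0.97, adjusted p = 0.00212, edgeR). B cells, which make antibodies, held 165, 202 and 146 CPM in controls and 249, 237, 265 and 211 CPM in treated samples (0.41, adjusted p = 0.0168, edgeR), and the B cell call was lost without control 1 or 3 or treated sample 1 or 3 (up to adjusted p = 0.106). Keratin-high epithelial cells stood at 1.63 CPM in controls and at 6.22 CPM over the 3 treated samples with at least 10 cells (1.58, adjusted p = 0.0201, edgeR). That call was lost without control 3 (1.35, adjusted p = 0.0521), treated sample 1 (1.35, adjusted p = 0.126) or treated sample 3 (1.24, adjusted p = 0.131, edgeR).

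Over all cells Il2rg stood at 27.7, 27.7 and 9.65 CPM in controls and 231, 231, 233 and 240 CPM in treated samples. In the classes outside the T and NK cells it stood at a median of 110% of that level in controls and 34.5% in treated samples, mostly above the T and NK cell genes. With free RNA subtracted, the calls were lost in B cells (0.18, adjusted p = 0.427), plasmacytoid dendritic cells (0.58, adjusted p = 0.116) and monocytes and macrophages (0.71, adjusted p = 0.0545, edgeR).

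**Figure D3:**
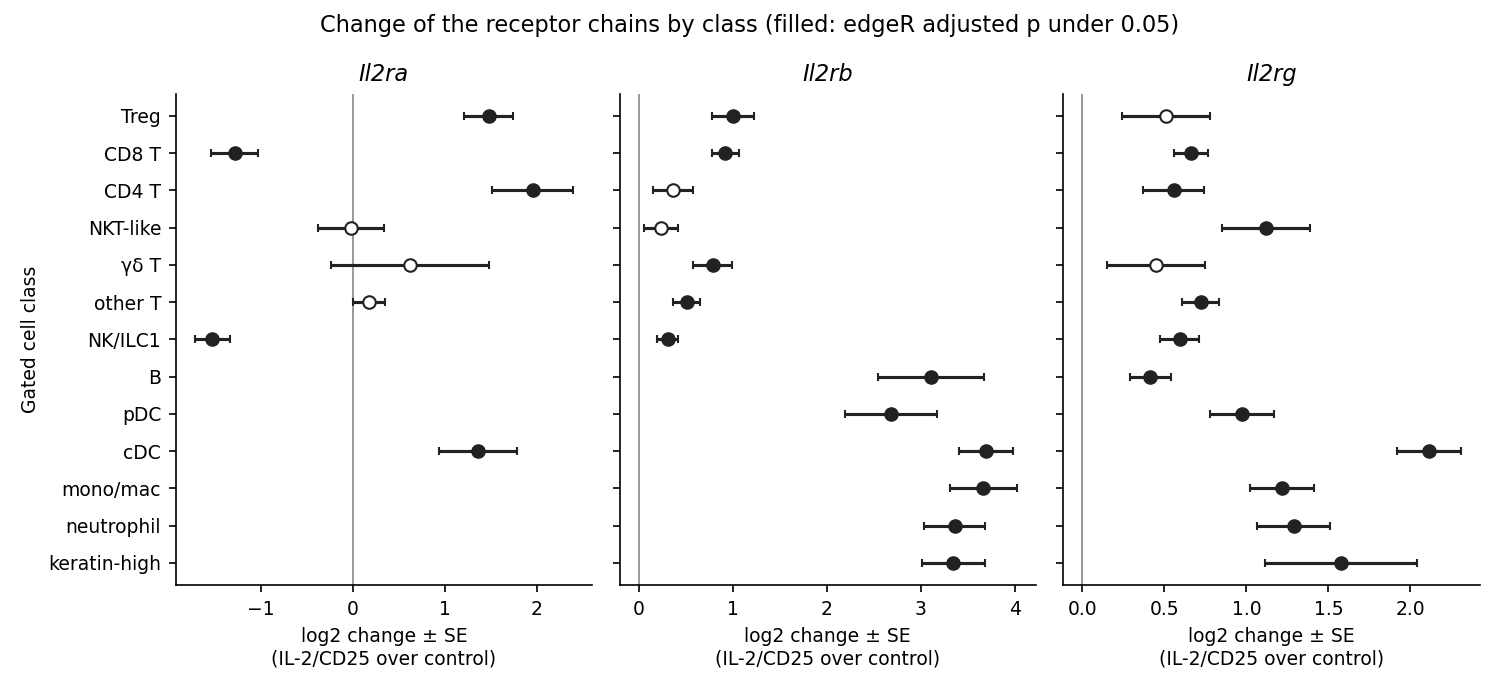
Log2 fold change of each chain between treated and control samples in every class tested, with its standard error, from edgeR. Filled points passed an adjusted p of 0.05. Il2ra is the chain that passed in both directions, from 1.96 in CD4 T cells to -1.53 in NK cells, whereas each call of Il2rb and Il2rg was toward treated samples.

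In the 7 T and NK cell classes, Il2rb passed upward in 5 and Il2rg in 5. The Il2rb call was lost with any single sample left out in NK cells and in 5 of 6 such fits in gamma delta T cells. Both also passed upward in the 6 classes outside them, where Il2rb stood at a few percent of its all-cell level in treated samples. Of all genes, between 1.3 and 31.1% passed upward in these 13 classes. Il2ra rose in 3 of the 8 classes where it could be tested (Treg, CD4 T and conventional dendritic cells) and fell in 2 (CD8 T and NK cells). These calls are edgeR's. By exact two-sided permutation tests of CPM over samples, no level of the 4 genes passed. The smallest adjusted p of these tests was 0.0686 over 48 gene and class pairs. With at least 5 cells it was 0.0619 over 52 pairs. Whether the chains moved differently in different classes was compared directly, by taking within each sample the log2(CPM + 1) of a chain in one class minus that in another. Il2ra in Treg cells exceeded that in NK cells by 4.05 ± 0.78 in controls (SD, n = 3) and by 6.60 ± 0.22 in treated samples (n = 4), a shift of 2.55. Against CD8 T cells the excess was 3.82 in controls and 6.23 in treated samples, a shift of 2.41. Il2rb in CD8 T cells lay below that in NK cells by a difference of -1.63 in controls and -1.01 in treated samples, and below NKT-like cells by -1.42 and -0.52. For Il2rg, CD8 T cells differed from NKT-like cells by -0.24 and -0.47. In each of these 5 comparisons the groups did not overlap, with p = 0.0286 by an exact two-sided permutation test, the smallest value that 35 splits can give. Over the 10 comparisons made, the smallest adjusted p was 0.0571, so none passed. The other 5 shifts were 1.23 (Il2ra in Treg against NKT-like cells, p = 0.2), 1.01 (Il2ra in Treg against gamma delta T cells, p = 0.286), 0.13 (Il2rb in CD8 T against Treg cells, p = 0.457), 0.02 (Il2rg in CD8 T against NK cells, p = 0.914) and 0.37 (Il2rg in CD8 T against Treg cells, p = 0.114, exact permutation tests).

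Treg cells had the highest share of single cells with UMIs of all 3 chains, the parts of the high-affinity receptor. At 2000 UMIs per cell, the treated classes held 595 such cells, of which 30.1% were Treg cells, 26.1% other T cells, 16.1% NKT-like cells and 11.3% NK cells. Within the class, 30.8, 20.2, 30.8 and 22.1% of Treg cells in the treated samples held all 3. In controls these were 2 of 6, 2 of 13 and 1 of 9 cells, which is 33.3, 15.4 and 11.1%, with exact 95% binomial intervals from 4.33 to 77.7% and 0.281 to 48.2% for the first and the third. The control values span the treated ones, and no difference was detectable with so few cells. Among NKT-like cells the share was 9.83, 9.74, 7.67 and 7.75% in treated samples and 0 in all 3 controls. The controls held 32 such cells in all, which allows a share of up to 9.38% by the limit of 3 cells, just above the treated mean of 8.75%. The groups did not overlap (p = 0.0286, exact two-sided permutation test, adjusted p = 0.099 over 52 shares), and the share did not pass. This test, and the gamma delta T cell shares below, used samples with at least 3 thinned cells, a minimum added after the data were seen. In treated ILC2-like cells the pooled share was 11.1% of 99 cells, and in treated CD4 T cells the mean was 5.71%, beside 1.45% in controls. Other T cells stood at 2.61 ± 2.67% in controls and 3.73 ± 0.668% in treated samples, and gamma delta T cells at 6.73 ± 5.92% and 4.12 ± 1.45%, with overlap in both. CD8 T cells stood at 0.164 ± 0.284% and 0.637 ± 0.207% and NK cells at 0.625 ± 0.548% and 0.601 ± 0.176% in controls and treated samples.

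Cells with Il2rb and Il2rg but no Il2ra, the parts of the intermediate-affinity receptor, were more frequent in treated samples among NK cells (21.9 ± 1.85% in controls and 37.7 ± 1.01% in treated samples), CD8 T cells (14.7 ± 4.33 and 25.4 ± 1.82%) and other T cells (16.5 ± 11.0 and 32.2 ± 1.57%). The groups did not overlap in these 3 classes, with p = 0.0286 by the exact two-sided permutation test and an adjusted p of 0.114 over the 48 shares compared, so no share passed. In treated Treg cells this combination was held by 11.2 ± 2.43% and in treated NKT-like cells by 29.0 ± 2.60%. Without thinning, all 3 chains were found in 8.38% of control and 2.68% of treated CD8 T cells. They were found in 5.58 and 1.72% of NK cells and in 58.9% of treated Treg cells. Depth differed between the groups over all cells, and its part in these shares was not tested. At equal depth an Il2ra UMI was found in 3.33% of control and 1.86% of treated CD8 T cells and in 2.44 and 1.27% of NK cells. Monocytes and macrophages, a class with little Il2ra, held one in 0.140% of control cells and in 0 of 417 treated cells. That 0 allows a share of up to 0.719%.

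How often the chains were found together was set against the product of their single shares, as a median of that ratio over the 4 treated samples. For Il2rb with Il2rg it lay between 0.98 and 1.02 in 6 of the 7 T and NK cell classes and at 1.07 (0.97 to 1.18) in CD4 T cells. For Il2ra with Il2rb it was 1.00 in Treg cells, 0.97 in NKT-like cells, 1.01 in other T cells, 1.03 in NK cells, 1.09 in CD8 T cells and 0.89 in gamma delta T cells, and it was above 1 in all 4 samples in CD4 T cells (1.80, 1.16 to 2.14). For Il2ra with Il2rg it was 0.99 in Treg cells, 1.04 in NKT-like and 1.04 in CD4 T cells, and higher in NK cells (1.23, 1.11 to 1.37), gamma delta T cells (1.17, 1.00 to 1.36) and other T cells (1.13, 1.08 to 1.22). These ratios are a description and were not tested.

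**Figure D4:**
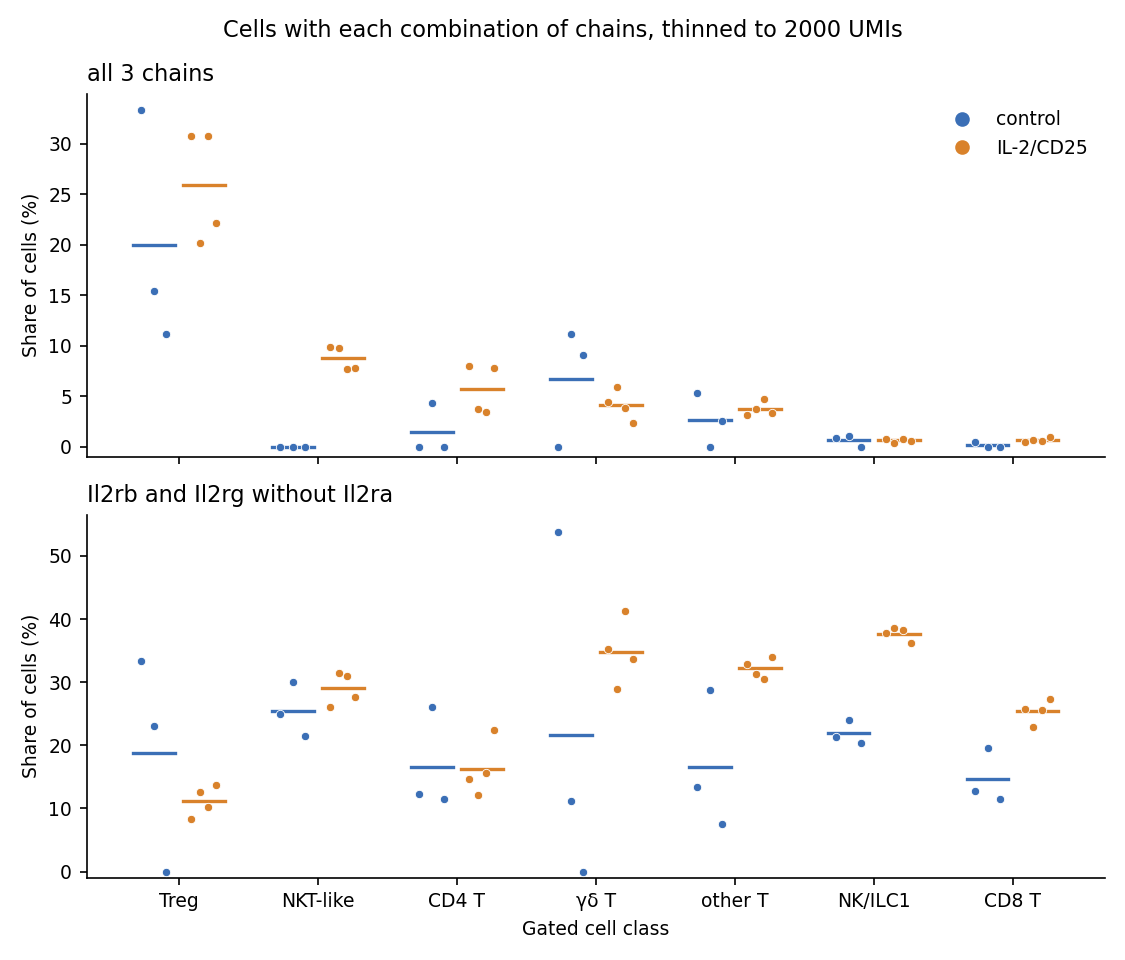
Share of cells with UMIs of all 3 chains, and with Il2rb and Il2rg but no Il2ra, at 2000 UMIs per cell, for each sample by class. Points are samples and bars are group means. Treated Treg cells hold all 3 chains in 20.2 to 30.8% of cells, and the share with Il2rb and Il2rg alone is higher in all treated than in all control samples in NK, CD8 T and other T cells.

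Il2 itself was sparse in both groups. The controls held 175 Il2 UMIs in 171 of 23677 cells and the treated samples 470 in 429 of 34062, of which 393 treated cells held 1 UMI. Over all cells the level was 0.676, 0.611 and 0.474 CPM in controls and 3.25, 3.29, 3.15 and 3.53 CPM in treated samples. Each treated sample lay well above each control, and NK cells and ILC1, for comparison, made up a mean of 1.95% of control and 34.7% of treated cells.

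In the treated samples Il2 UMIs lay mainly in lymphocytes, with 33.4% in other T cells (157 UMIs), 24.0% in NK cells (113), 10.6% in CD8 T cells (50) and 9.79% in gamma delta T cells (46). In the same order, these classes made up 12.8, 34.7, 8.99 and 2.62% of treated cells. By mean level, gamma delta T cells held 12.6 ± 2.62 CPM (SD, n = 4), ILC2-like cells 11.3 ± 10.0, other T cells 8.94 ± 0.747, CD4 T cells 7.24 ± 5.67, CD8 T cells 3.38 ± 1.32 and NK cells 2.71 ± 0.556. Each of these classes overlapped with the next in the order. In the controls, 38.9% of the Il2 UMIs lay in the large class of keratin-high epithelial cells (68 UMIs), at a pooled level of 0.415 CPM. Monocytes and macrophages stood at 0.517 CPM, neutrophils at 0.514 and conventional dendritic cells at 0.533 in controls. Relative to the level of Il2 over all cells of a control, the keratin-high cells held 57.1 to 98.3% and monocytes and macrophages 68.3 to 113%, whereas Gzma, Nkg7 and Ms4a4b stood at 3.93 to 10.2% and 9.14 to 15.5% of theirs. The source of these UMIs was not tested.

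Within classes Il2 did not differ past the threshold in any of the 4 that could be tested: the log2 fold change was 0.07 in CD8 T cells (adjusted p = 0.922), -0.08 in other T cells (adjusted p = 0.930), 1.64 in NK cells (adjusted p = 0.135) and -0.52 in gamma delta T cells (adjusted p = 0.902, edgeR). Other T cells, for instance, held 8.87 ± 5.95 CPM in controls and 8.94 ± 0.747 in treated samples. The level of Il2 over all cells thus differed between groups where the level within these classes did not pass. The controls held 11 Il2 UMIs in CD8 T cells, 10 in other T cells and only 2 each in NK and gamma delta T cells. With 1 sample left out the log2 fold change ran from 0.43 to 2.37 in NK cells, lowest without control 2, and from -1.51 to 6.25 in gamma delta T cells, the extremes being without control 1 and control 3.

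Hepatocytes and keratin-high epithelial cells were examined on their own, since hydrodynamic injection is known to reach liver parenchyma. Whether the treated keratin-high cells took up plasmid was not tested, and they held Nras at 246 CPM, against 3220 in controls, beside the Myc levels given above. Hepatocytes, gated by liver enzymes, numbered 280 in treated samples and held 0 Il2 UMIs, which allows up to 3.61 CPM and up to 1.07% of cells with a UMI, and 2 Il2ra UMIs. Treated keratin-high epithelial cells held Il2 in 4 of 173 cells, Il2ra in 5 and both in 2, whereas the control class held them in 67, 25 and 1 of 3313 cells. The 2 treated cells with both were deep, at 204343 UMIs (3 of Il2 and 6 of Il2ra) and 38249 UMIs (1 and 2). They came from treated samples 2 and 1, where the median depth of the class was 10493 and 15472.5 UMIs. The same 2 barcodes also held Il2rb (5 and 1 UMIs) and Il2rg (1 and 1). Whether they hold RNA of more than 1 cell was not tested. Monocytes and macrophages of treated samples held 0 Il2 UMIs in 451 cells, which allows up to 0.825 CPM.

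The receptor chains in cells with Il2 were set beside the shares in their own classes. Of the 429 treated cells with an Il2 UMI, 39 (9.09%) also held Il2ra and 401 (93.5%) also held Il2rb, and the shares of their own classes, averaged over these cells, were 11.7 and 86.3%. In controls 12 of 171 (7.02%) held Il2ra and 35 (20.5%) held Il2rb, beside 4.15 and 19.4% from their classes. These shares are not thinned and were not tested.

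**Figure D5:**
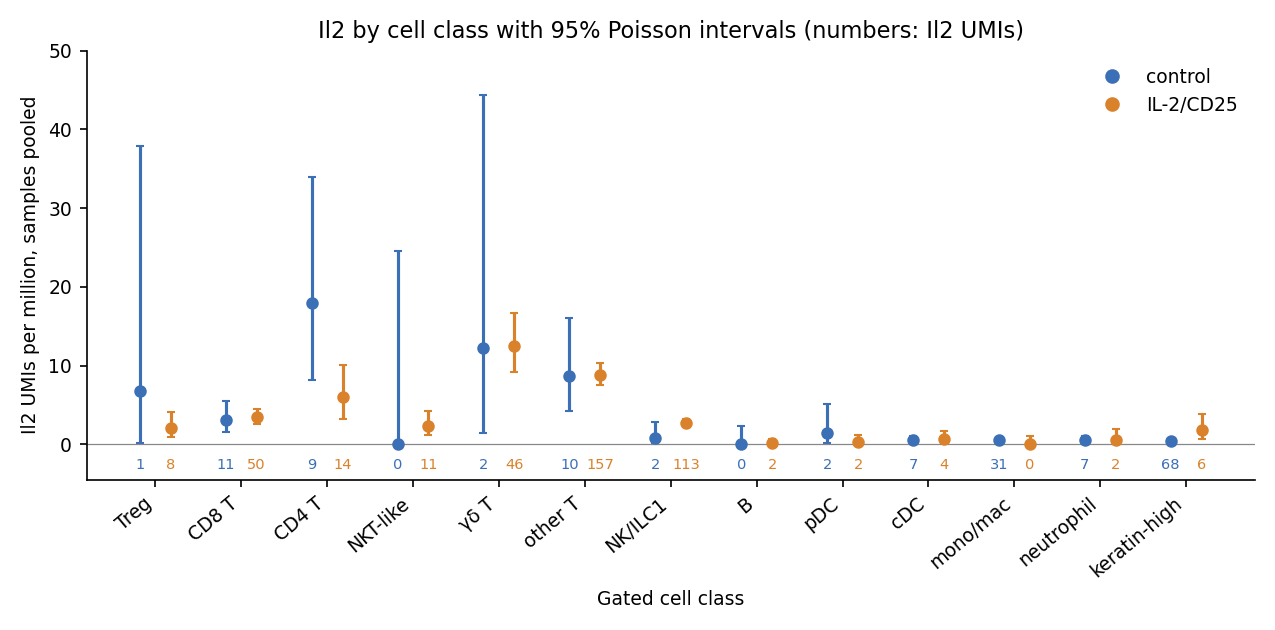
Il2 in CPM of each class, pooled within controls and within treated samples, with exact Poisson 95% intervals that cover counting error only. Gamma delta T and other T cells hold the most among treated classes with over 100 cells, at 12.5 and 8.82 CPM, and control epithelial and myeloid classes lie near 0.5 CPM.

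Genes that act with the receptor were read from a list of 25 other receptors of the gamma chain family, JAK-STAT signalling genes and IL-2 response genes. In CD8 T cells 14 of the 24 tested rose and 5 fell, with a list median of 0.54 on the log2 scale beside 0.02 for all genes. Of the list 79.2% passed, beside 56.5% of all genes. Among those that rose were Il7r, the IL-7 receptor (1.93), Socs3, an inhibitor of cytokine signalling (1.86), the survival kinases Pim2 (1.59) and Pim1 (1.12), Il4ra (1.49), Jak1, which binds the beta chain (1.19), Il21r (1.01) and Bcl2, a survival gene (0.69). Those that fell were Cish, a target of STAT5 that limits its signal (-1.37), Il15ra, which presents IL-15 (-0.81), Crlf2 (-0.76), Prdm1, which encodes Blimp-1 (-0.66), and the adaptor Grb2 (-0.30, all edgeR).

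In NK cells 8 of 24 rose and 4 fell, with a list median of 0.19 beside 0.05 for all genes. Of the list 50% passed, beside 40.4% of all genes. Pim1 (1.12), Sos1 (0.96), Prdm1 (0.93), Ikzf1 (0.92) and Stat5b, a transcription factor of the pathway (0.64), were among those that rose, and Il7r (-0.83), Pim2 (-0.82), Bcl2 (-0.67) and Crlf2 (-0.46) fell. In Treg cells 2 of 23 rose, Pim1 (1.47) and Cish (1.13), and Il7r fell (-1.27), with a list median of 0.58 beside 0.18 for all genes. In NKT-like cells none of 24 rose and Bcl2 (-0.97) and Il7r (-0.94) fell, while the list median was 0.44 and that of all genes 0.26. In gamma delta T cells Stat3 (1.79) and Pim1 (1.12) rose and Il7r (-0.89) fell, with medians of 0.58 and 0.26. In other T cells 6 of 24 rose, with Il21r (0.85) and Pim1 (0.78), and 3 fell, Bcl2 (-0.9995), Il7r (-0.93) and Crlf2 (-0.54), with medians of 0.33 and 0.05. In CD4 T cells 6 of 22 rose, with Socs2 (1.16), Pik3r1 (1.09) and Pim1 (1.02), and Socs3 (-1.01) and Bcl2 (-0.69) fell, with medians of 0.18 and 0.01. Pim1 thus rose in 6 of these 7 lymphocyte classes, and Il7r rose in CD8 T cells and fell in 5 others. Outside the T and NK cells, 17 of 23 genes rose and 3 fell in conventional dendritic cells, 14 and 3 of 22 in monocytes and macrophages, 11 and 4 of 17 in neutrophils, 12 and 1 of 24 in keratin-high epithelial cells, 5 and 4 of 24 in B cells and 3 and 4 of 23 in plasmacytoid dendritic cells. These counts are read beside the shares of all genes that passed in each class, given above.

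Genes with the most similar pattern were taken over 89 sums of a class in a sample, in 17 classes, by Pearson's r of log2(CPM + 1) among 11137 genes. These sums share their samples and differ in depth, so r is a description. For Il2ra the most similar were Icos (0.85), Ccr4 (0.83), Podnl1 (0.82), Gata3 (0.82), Il12rb1 (0.81) and Tnfrsf18 (0.81), of which Gata3 is used in the ILC2 gate. For Il2rb they were Zap70 (0.95), Ctsw (0.95), which is a marker in the T and NK gate, Fam189b (0.94), Thy1 (0.93), Sh2d2a (0.93) and Ms4a4b (0.93). For Il2rg they were Shisa5 (0.92), Ankrd11 (0.90), Itpkb (0.90), Elf1 (0.90), Rasal3 (0.90) and Fli1 (0.90). For Il2 they were Camk4 (0.79), Trat1 (0.79), Ubash3a (0.78), Cd96 (0.77), Rundc3b (0.77) and Bcl11b (0.77). Between the members themselves r was highest for Il2rb with Il2rg (0.73) and lowest for Il2 with Il2rg (0.51).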

How the data were processed

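Single-cell RNA of 7 mouse liver samples was measured with 10x 3′ libraries. The values are UMI counts per gene and barcode, which the authors deposited unnormalised. Reads were handled with Cell Ranger 7.0.0 and bcl2fastq 5.0.1, per the submitters' processing notes. The genome build is not given in the sources used here, and coordinates are left out. The authors' files hold barcodes called as cells. Between 14 and 37 barcodes were shared by any pair of samples (0.189 to 0.385% of the smaller).

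Barcodes were kept that held 500 UMIs or more from at least 200 genes, of which under 20% were mitochondrial, and doublets, called by likeness to sums of random pairs, were removed (5.81 to 8.51%). Cells were gated, not clustered: a class needed at least 3 markers of its list above what 10% free RNA would give (Poisson tail under 0.1) and at least 2 times as many as any other list, T cells needed at least 2 Cd3 UMIs, and 25.9 to 35.4% of control and 9.86 to 12.4% of treated cells fell in no class. Counts were summed per sample and class (at least 10 cells) and tested on all genes with edgeR 4.0.16 in R 4.3.3 (quasi-likelihood test, TMM, filterByExpr, Benjamini-Hochberg adjustment within the class), with no covariate. Shares and CPM were compared by exact permutation tests over samples (scipy 1.17.1 in Python 3.11.15, with pandas 2.3.3, numpy 2.4.6, matplotlib 3.10.9 and scikit-learn 1.9.0). On simulated counts, edgeR found 47.9% of 192 genes changed 2-fold in NK cells (12894 genes), 12.7% of 181 in NKT-like cells (8571 genes) and 82.8% of 198 in monocytes and macrophages (8895 genes).

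The 4 genes and the lists were chosen with earlier results of these data known. Beside the members and the fixed pathway list, the rule named the 6 genes with the highest correlation to each member among those with at least 20 CPM in a class. The alternatives tried were DESeq2 1.42.0, median-of-ratios scaling, free RNA subtracted, doublets kept, no filter, stricter gates, stricter cells, a replicate block, at least 20 cells, other thinning and each sample left out. The minimum of 5 cells was added after seeing the data. So was the minimum of 3 thinned cells, used for the shares with all 3 chains in Treg, NKT-like and gamma delta T cells. Intervals and limits cover counting error only.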

Additional observations from a re-analysis of the deposited data

Results flagged for a closer look

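Il2rg in neutrophils was 25.4 CPM in treated sample 1, against 37.2 to 38.5 CPM in the other 3 treated samples, a gap of 0.901 of the group's range, past Dixon's 95% critical value of 0.829 for 4 samples. It was 1 of 38 groups of 4 samples examined, where chance flags about 1 in 20. All 4 samples lay above the controls.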

How the results depend on the processing

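Each result was recomputed with 1 choice changed at a time, where enough samples still held enough cells of the class. No result that passed changed its sign. The results that changed sign had not passed: Il2 in CD8 T cells with free RNA subtracted (-0.054), Il2 in other T cells with no low-count filter (0.036) and doublets kept (0.018), Il2ra in NKT-like cells with no filter (0.10), doublets kept (0.11) and free RNA subtracted (0.026), Il2ra in gamma delta T cells with doublets kept (-0.020) and Il2ra in other T cells with free RNA subtracted (-0.029). The difference in the share of cells with all 3 chains, in percentage points, changed sign in NK cells at 1000 UMIs (0.134) and with doublets kept (0.0386) and, with no thinning, in CD8 T (-5.70) and other T cells (-1.88), as did the share with Il2rb and Il2rg alone in NKT-like cells at 1000 UMIs (-0.172). With no thinning depth differs between the groups, and its part was not tested. For the rest the cause was not tested either.

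Calls were lost for Il2rb in NK cells with free RNA subtracted (0.18), for Il2rb in gamma delta T cells with median-of-ratios scaling (0.71), free RNA subtracted (0.77) or at least 5 cells (0.60), for Il2rg in monocytes and macrophages with free RNA subtracted (0.71) and for Il2rg in CD4 T cells with stricter gates (0.52, adjusted p = 0.119, edgeR). Il2rb in CD4 T cells passed with no filter (0.52, adjusted p = 0.0481, edgeR). The cause was not tested. The labels do not say that the replicate numbers pair the samples. Deviations of same-numbered samples correlated between -0.0617 and 0.146, with 1 of 35 pairs over 0.1. With so few samples in a group, these correlations cannot exclude a pairing. With the replicate block, calls were lost for Il2rb in NK cells (0.28, adjusted p = 0.165) and gamma delta T cells (0.83, adjusted p = 0.217) and for Il2rg in NKT-like (1.14, adjusted p = 0.0595), CD4 T (0.53, adjusted p = 0.125) and keratin-high epithelial cells (1.53, adjusted p = 0.0671, edgeR), and 30 other results stayed on their side of the threshold.

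With each sample left out in turn, log2 fold changes ran from 1.18 to 1.69 for Il2ra in Treg cells, 0.24 to 0.37 for Il2rb in NK cells, 0.83 to 1.24 for Il2rb in Treg cells, 0.56 to 1.21 for Il2rb in gamma delta T cells, 0.97 to 1.17 for Il2rg in NKT-like cells and 1.24 to 1.83 for Il2rg in keratin-high epithelial cells. Those that changed sign ran from -0.17 to 0.48 for Il2 in CD8 T cells, -1.51 to 6.25 for Il2 in gamma delta T cells, -0.51 to 0.38 for Il2 in other T cells, -0.58 to 0.43 for Il2ra in NKT-like cells and -0.0016 to 0.39 for Il2ra in other T cells, and shares with all 3 chains from -0.337 to 0.174 points in NK cells and -0.187 to 2.48 in other T cells. For Treg cells only the minimum of 5 cells, with all samples or each left out in turn, and doublets kept gave a fit. DESeq2, median-of-ratios scaling, no filter and the replicate block gave no value for them. Neither did stricter cells, stricter gates, free RNA subtraction or the minimum of 20 cells. The small control classes limit what can be seen: control Treg cells numbered 30 and NKT-like cells 36, and control Il2 UMIs in any lymphocyte class were 11 or fewer.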
